A study of Mus musculus with 2 samples.

Results

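Grip1, Pdzrn3, Glis3, Scara5, Shroom3, Garem1 and Gramd1c are 7 of the 32285 genes counted in 2 single-cell liver libraries, and they were chosen by their measured UMIs (unique molecular identifiers, 1 per captured RNA molecule), which had been seen to be higher in N-LKO than in WT over several cell classes. That choice set no numeric threshold. The difference between N-LKO and WT in these genes is therefore given below as a description, and it is not a finding that stands on its own. The study asked how loss of NgBR, the protein of Nus1 and a subunit of the enzyme that makes the lipid carrier for protein glycosylation, acts in fatty liver and liver tumors. The WT library (genotype label CTRL, tissue label Liver) and the N-LKO library (genotype label NgBR KO, tissue label Liver plus tumor) came from male C57BL6 mice. N-LKO mice carried NgBR alleles with loxP sites around exon 1 and Cre under the albumin promoter, which acts in hepatocytes. Both groups were fed for 16 weeks a diet that the sample titles call HFD and the treatment labels call WD, a Western-type diet. Liver cells were released with collagenase, hepatocytes and nonparenchymal cells were mixed before loading, tumor cells were added in N-LKO, and poly(A) RNA was captured with the 10x Genomics 3′ v3 chemistry. Each group is 1 library, so no test between groups was possible, and genotype, tumor tissue and library cannot be told apart. Intervals are exact 95% intervals that cover counting error only.

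The 7 genes belong to no common pathway. GRIP1 is a scaffold with PDZ domains that holds AMPA-type glutamate receptors and other membrane proteins in place, and GAREM1 is an adaptor that links the EGF receptor to Grb2 and the MAP kinase pathway. PDZRN3 is a RING-type ubiquitin ligase with PDZ domains, and GLIS3 is a zinc finger transcription factor known for its part in pancreatic beta cells, thyroid and kidney. SCARA5 is a class A scavenger receptor that takes up ferritin, SHROOM3 acts on the actin cytoskeleton at the apical side of epithelial cells, which lets them change shape, and GRAMD1C (Aster-C) moves cholesterol from the plasma membrane to the endoplasmic reticulum.

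The upstream 250 bases of 4 of the genes are printed to show what lies before their annotated starts. The windows of Glis3 and Pdzrn3 lie directly before the first base of the gene, while those of Shroom3 and Gramd1c lie inside the gene, before an internal alternative start. The sequences are those of RefSeq (GRCm38.p6), 5′ to 3′ on the strand of the gene and ending at the base before the start site, and capitals mark the motifs found.
Glis3, chr19:28680078-28680327, minus strand: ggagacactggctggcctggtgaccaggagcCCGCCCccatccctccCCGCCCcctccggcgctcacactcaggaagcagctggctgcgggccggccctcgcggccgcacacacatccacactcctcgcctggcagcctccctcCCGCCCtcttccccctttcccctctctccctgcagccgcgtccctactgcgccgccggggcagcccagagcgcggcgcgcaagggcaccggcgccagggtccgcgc
Pdzrn3, chr6:101377898-101378147, minus strand: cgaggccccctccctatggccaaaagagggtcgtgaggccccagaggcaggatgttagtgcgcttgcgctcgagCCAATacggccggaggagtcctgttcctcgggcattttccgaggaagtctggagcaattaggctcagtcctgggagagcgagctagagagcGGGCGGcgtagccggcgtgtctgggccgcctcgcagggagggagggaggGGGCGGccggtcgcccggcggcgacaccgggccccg
Shroom3, chr5:92897743-92897992, plus strand: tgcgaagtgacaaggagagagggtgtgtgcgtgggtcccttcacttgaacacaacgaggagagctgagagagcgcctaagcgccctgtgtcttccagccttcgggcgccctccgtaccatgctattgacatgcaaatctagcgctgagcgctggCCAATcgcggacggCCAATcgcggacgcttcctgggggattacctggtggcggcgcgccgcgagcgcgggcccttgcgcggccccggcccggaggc
Gramd1c, chr16:44027946-44028195, minus strand: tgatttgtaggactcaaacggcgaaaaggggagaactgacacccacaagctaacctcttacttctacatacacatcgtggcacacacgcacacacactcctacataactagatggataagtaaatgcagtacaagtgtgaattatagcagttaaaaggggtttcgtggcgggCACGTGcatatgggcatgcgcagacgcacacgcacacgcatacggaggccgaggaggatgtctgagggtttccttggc
Searched on both strands were TATAAA (present in 12.4% of 32851 promoter windows of the same length), the CCAAT box CCAAT (33.8%), the GC box GGGCGG (32.7%), the E-box CACGTG (6.02%), the AP-1 motif TGACTCA (4.46%) and the CRE motif TGACGTCA (1.55%). Glis3 held 3 GC boxes on the reverse strand, Pdzrn3 2 GC boxes and 1 CCAAT box, Shroom3 2 CCAAT boxes, and Gramd1c 1 E-box. No motif was common to the 4 windows. Their CpG counts were 24, 25, 27 and 13, against a median of 6 over all windows. The table held 10 windows for 5 of the 7 genes, 7 of which lay above that median. A match describes the letters of a window and shows no binding.

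The genes were grouped as long genes, so their size is part of how they were picked and is given as a description. In the GRCm38 annotation, Grip1 spans 633 kb (chr10:119453830-120087261, plus strand), Glis3 421 kb (chr19:28258851-28680077, minus strand), Shroom3 282 kb (chr5:92683435-92965318, plus strand) and Pdzrn3 228 kb (chr6:101149609-101377897, minus strand). Garem1 spans 173 kb (chr18:21127201-21300138, minus strand), Scara5 98.4 kb (chr14:65666403-65764826, plus strand) and Gramd1c 83.0 kb (chr16:43980350-44063345, minus strand). All 7 lie between the 86.0th and the 99.4th percentile of 21625 protein-coding genes, whose median span is 17.4 kb. Exons make up 1.27% of the span in Grip1 and at most 6.19% in Scara5, so introns hold nearly all of each gene. Grip1 also overlaps 5 genes of the opposite strand in the matrix, among them Helb, which together had 724 UMIs in WT and 796 in N-LKO, against 1067 and 6586 for Grip1. Whether the counting used strand or introns is not given in the sources used here, so reads of such overlapping genes could not be told apart.

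The libraries held 85522287 UMIs (WT) and 87575064 UMIs (N-LKO) in 100171 and 90147 barcodes, of which 18434 and 19851 were kept as cells, with medians of 1401 and 1454 UMIs. Of the barcode sequences, 2499 occurred in both libraries, 122 of them among the cells of both. Clusters were named from marker genes into 11 classes with at least 100 cells in each library. Hepatocyte-like cells numbered 9952 in WT and 4053 in N-LKO, and the smallest class in WT, the plasma cell-like cells, numbered 101 and 265. The hepatocyte-like class was carried by different clusters in each library. In WT, cluster 0 held 82.2% of it, and in N-LKO clusters 5 and 6 held 48.9% and 48.2%. Cluster 6 rests on 4 raised hepatocyte markers, and its leading genes by fold (Gm31508, Gm44507, Pdzrn3, Neat1, Eda, Grip1, Pik3c2g, Gm7967, Aox1, Tmem45b) hold none of the markers, so its name is weak. The 7 genes took part in no clustering step. Nus1, the target, was at 73.0 CPM (UMIs of the gene per 1000000 UMIs of the class) in hepatocyte-like cells of WT and 34.4 CPM in those of N-LKO, a log2 ratio of -1.08 [-1.28, -0.90], and at 77.9 CPM in macrophage-like cells of both libraries. The chemistry reads the 3′ end, which lies outside the deleted exon, so this level does not check the deletion itself.

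The 7 genes and 11 classes give 77 pairs of gene and class. N-LKO was at least 2-fold higher in 64 of them and at least 2-fold lower in 0, and the ratio was above 1 in 76. The interval lay wholly above no difference in 60 pairs and wholly at or above 2-fold in 45. In 51 pairs WT had more than 3 UMIs, and 40 of these were at least 2-fold higher. Another 20 pairs had 1 to 3 WT UMIs and 6 had none, so the sizes of those ratios are poorly known. Ratios were taken with 0.5 UMI added to each sum. In 24 of the 77 pairs the N-LKO level lay below that of N-LKO barcodes under 500 UMIs. The counts above include these pairs.

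**Figure D1:**
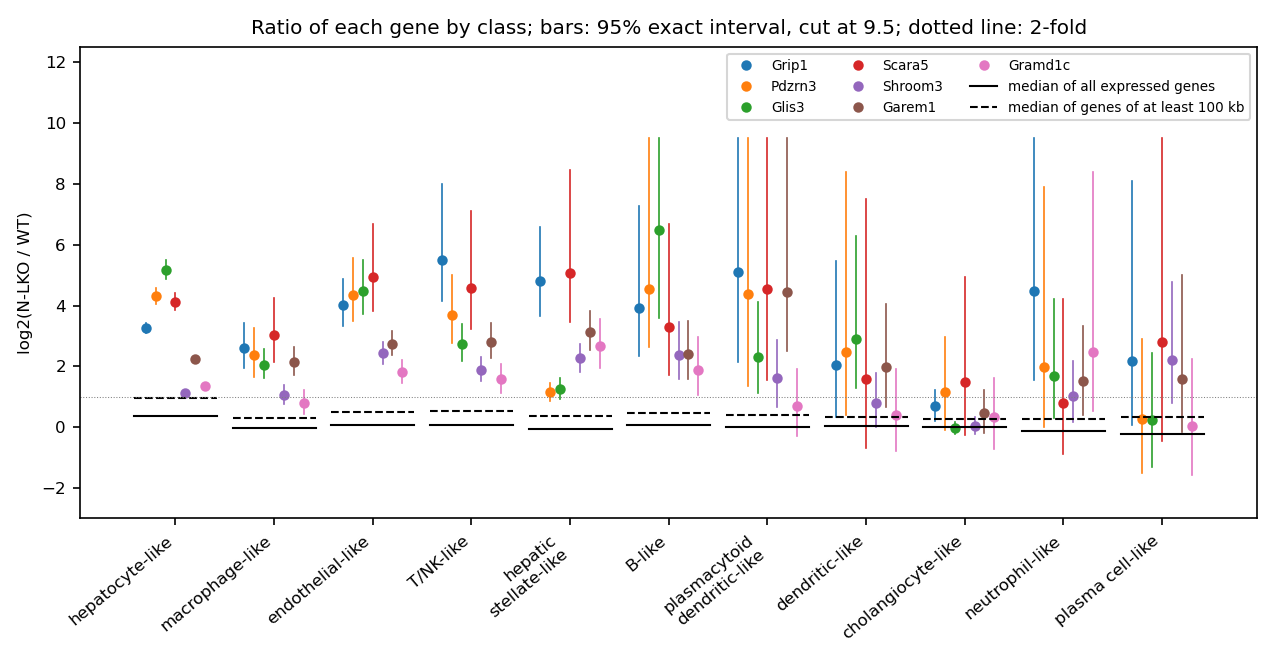
log2 ratio of N-LKO to WT for each gene (points, with exact 95% intervals cut at 9.5) in each of 11 cell classes, with the median ratio of all expressed genes (solid line) and of expressed genes with a span of at least 100 kb (dashed line). All 7 genes lie above the dotted 2-fold line in the hepatocyte-like, endothelial-like, T/NK-like, stellate-like and B-like classes, and 2 of 7 do in cholangiocyte-like cells.

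All 7 genes were at least 2-fold higher in hepatocyte-like cells, where 20.8% of the expressed genes (at least 5 CPM in either library) were. The same held for all 7 in endothelial-like cells (12% of expressed genes), T/NK-like cells (12%), hepatic stellate-like cells (10.8%) and B-like cells (13.3%). In macrophage-like cells 6 of 7 passed that size, against 4.64% of expressed genes. In plasmacytoid dendritic-like cells it was 6 of 7 (13.1%), in neutrophil-like cells 6 (13.6%), in dendritic-like cells 5 (12.7%), in plasma cell-like cells 4 (17.6%) and in cholangiocyte-like cells 2 (12.6%). Barcodes under 500 UMIs, used below as the background, had 6 of 7 at least 2-fold higher, against 18.6% of their expressed genes. In macrophage-like cells of N-LKO, Glis3 alone of the 7 was not below that background (50.6 against 46.7 CPM). With a minimum of 2000 UMIs a cell the B-like and neutrophil-like counts were 3 each, and the summed log2 ratio of B-like cells went from 2.98 to 0.65. The neutrophil-like count was 2 in cells with no Neat1 UMI, and the cholangiocyte-like count 1 or 0 under 5 alternatives. With no UMI added, pairs without a WT UMI have no ratio, which left 71 pairs. The plasmacytoid dendritic-like count was then 3, because Grip1, Pdzrn3 and Scara5 could not be counted there. Shares of all genes were not computed under these alternatives. Since the genes were chosen for this contrast, nothing is read from the excess over those shares. Among the 8986 genes expressed in every class, 4.26% passed 2-fold in at least 6 classes and 1.27% in at least 9. All 7 genes were among the former and 6 among the latter, Gramd1c with 6 classes being the exception. None of the 7 passed in every class, as 0.245% of those genes (22 genes) did.

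**Figure D2:**
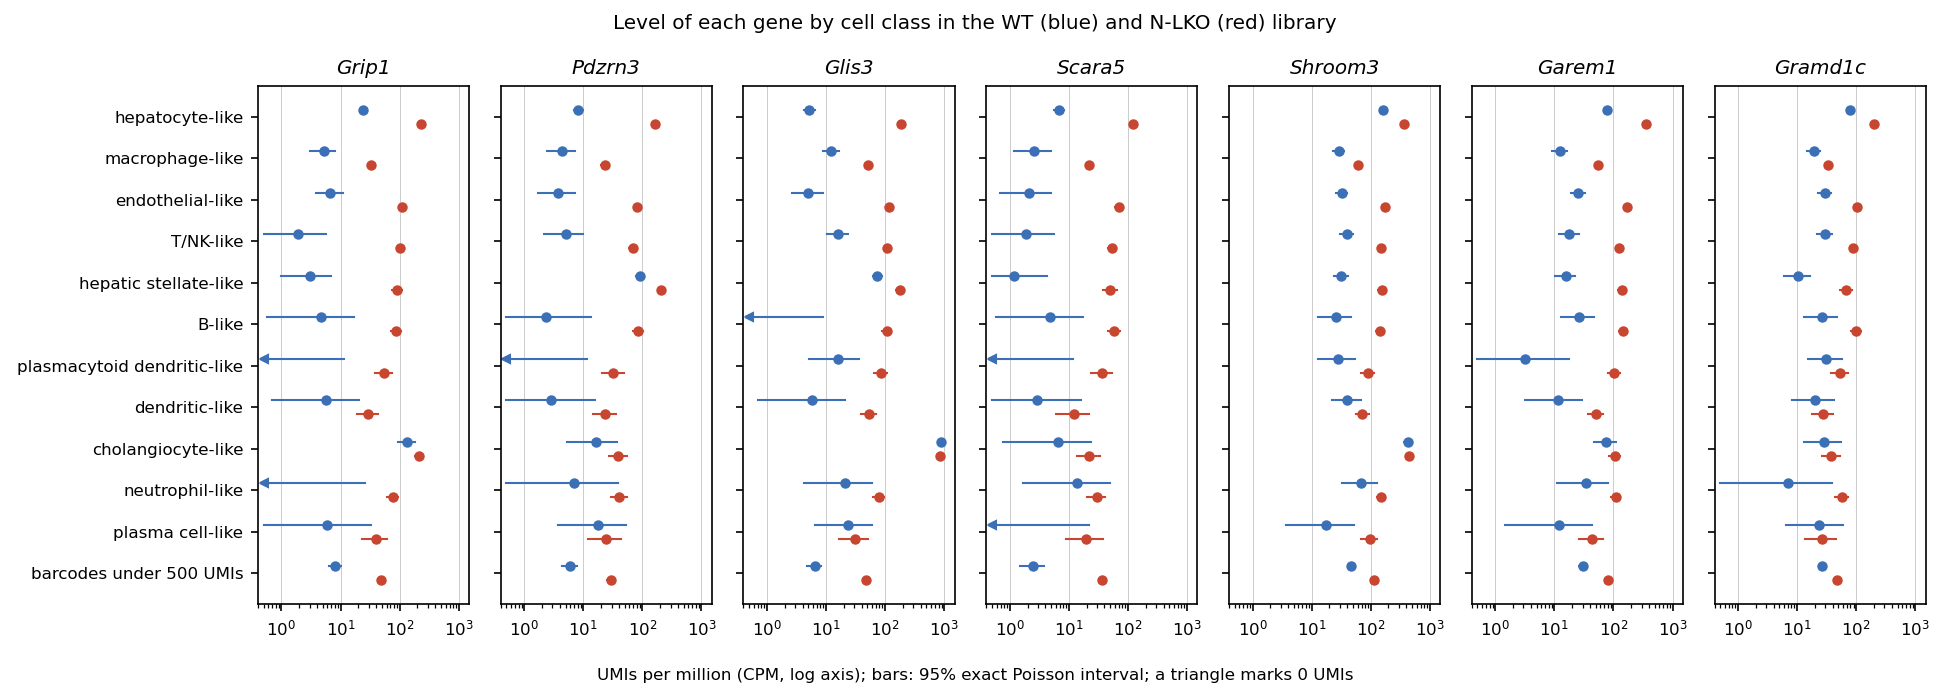
Level of each gene in CPM (log axis) in 11 cell classes and in barcodes under 500 UMIs, WT in blue and N-LKO in red, with exact 95% Poisson intervals and triangles for 0 UMIs. N-LKO lies to the right of WT in nearly every row, and in cholangiocyte-like cells the libraries coincide at a high level for Glis3 (878 and 862 CPM) and Shroom3 (429 and 446 CPM).

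Grip1, the glutamate receptor scaffold, was at 23.9 CPM (402 UMIs) in hepatocyte-like cells of WT and 230 CPM (1920 UMIs) in those of N-LKO, a log2 ratio of 3.26 [3.11, 3.42]. In endothelial-like cells it went from 6.72 to 111 CPM (4.01 [3.33, 4.87]), and in T/NK-like cells from 1.91 CPM, which is 3 UMIs, to 100 CPM (5.49 [4.15, 8.0]). Plasmacytoid dendritic-like and neutrophil-like cells of WT held no Grip1 UMI. Set against 3 WT UMIs, the N-LKO levels there were 5.70-fold and 3.72-fold higher. The lower interval limits of the log2 ratios were 2.15 and 1.57. Grip1 was thus sparse in every WT class but the cholangiocyte-like cells, where it stood at 132 CPM, and there the ratio was smallest (0.68 [0.20, 1.22], 214 CPM in N-LKO). The highest level of Grip1 in any N-LKO cluster, 526 CPM, was in 80 mesothelial-like cells.

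Garem1, the adaptor of growth factor signaling, was already well detected in WT hepatocyte-like cells at 76.4 CPM (1283 UMIs) and stood at 358 CPM (2991 UMIs) in their N-LKO counterparts, which is a log2 ratio of 2.23 [2.14, 2.33]. Its ratios were alike in the larger classes: 2.14 [1.70, 2.64] in macrophage-like, 2.75 [2.38, 3.17] in endothelial-like, 2.79 [2.26, 3.42] in T/NK-like and 3.13 [2.55, 3.81] in stellate-like cells. The intervals of these 4 classes overlap. In macrophage-like cells the N-LKO level was 0.685 times that of N-LKO barcodes under 500 UMIs. That ratio is therefore not read as a difference within those cells. Only the cholangiocyte-like class was under 2-fold (74.2 and 104 CPM, 0.47 [-0.18, 1.22]).

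Pdzrn3, the ubiquitin ligase, was at 8.27 CPM (139 UMIs) in hepatocyte-like cells of WT and 165 CPM (1376 UMIs) in those of N-LKO, a log2 ratio of 4.31 [4.06, 4.58]. Stellate-like cells were the WT class that had it at a high level, 92.7 CPM, and their N-LKO counterparts had 206 CPM, so the ratio was only 1.15 [0.85, 1.46]. In endothelial-like cells, with 9 UMIs in WT, the level went from 3.78 to 81.6 CPM (4.36 [3.49, 5.58]). Plasma cell-like cells, with 3 UMIs in WT, had 17.8 and 24.0 CPM (0.27 [-1.49, 2.91]), and that interval is too wide to place the ratio.

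Glis3, the transcription factor, had the largest ratio of the 7 in hepatocyte-like cells, from 5.24 CPM (88 UMIs) to 189 CPM (1576 UMIs), a log2 ratio of 5.16 [4.86, 5.50]. Among 10590 expressed genes that ratio stood at the 99.7th percentile. Cholangiocyte-like cells, where Glis3 had its highest WT level, 878 CPM, did not share it: N-LKO had 862 CPM there, which gives a log2 ratio of -0.03 [-0.23, 0.18]. Stellate-like cells took a place between (74.1 and 178 CPM, 1.27 [0.94, 1.60]). In B-like cells of WT no Glis3 UMI was counted, and N-LKO had 107 CPM. That is 15-fold above 3 WT UMIs (7.12 CPM), and the lower interval limit of the log2 ratio was 3.58.

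Scara5, the ferritin receptor, was scarce in WT everywhere, with 116 UMIs (6.90 CPM) in hepatocyte-like cells and at most 9 UMIs in any other class. N-LKO had 121 CPM (1013 UMIs) in hepatocyte-like cells, a log2 ratio of 4.13 [3.86, 4.43], 70.0 CPM in endothelial-like (4.93 [3.82, 6.70]) and 22.3 CPM in macrophage-like cells (3.03 [2.15, 4.26]). The macrophage-like level was 0.607 times that of N-LKO barcodes under 500 UMIs, so that ratio is not read as a difference within those cells. Over the whole libraries, cells and all other barcodes together, Scara5 had the largest ratio of the 7, 3.53 on the log2 scale, and Gramd1c the smallest, 0.78.

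Shroom3 and Gramd1c, the regulator of epithelial shape and the cholesterol carrier, were detected in every WT class and had the smallest ratios in hepatocyte-like cells. Shroom3 went from 164 CPM (2756 UMIs) to 361 CPM (3010 UMIs), a log2 ratio of 1.14 [1.06, 1.21], and Gramd1c from 78.1 CPM (1312 UMIs) to 198 CPM (1653 UMIs), 1.34 [1.24, 1.45]. The Shroom3 ratio was larger in endothelial-like cells (32.3 and 175 CPM, 2.43 [2.09, 2.80]) and close to none in cholangiocyte-like cells (429 and 446 CPM, 0.05 [-0.23, 0.35]). Gramd1c reached 2.68 [1.94, 3.57] in stellate-like cells and stayed under 2-fold in 5 classes, among them macrophage-like cells (19.3 and 33.9 CPM, 0.81 [0.43, 1.22]).

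Since different clusters carry the hepatocyte-like class, the same genes were also set side by side in the cluster richest in Malat1 and in the largest other cluster of each library. Both libraries held hepatocyte-like cells rich in Malat1 and Neat1, RNAs that stay in the nucleus: cluster 17 in WT (318 cells) and cluster 6 in N-LKO (1954 cells). Their Neat1 levels were 3115 and 3430 CPM, their Malat1 levels 35684 and 20140 CPM, and genes of at least 100 kb took 26.5% and 29.3% of their UMIs. The clusters were thus not matched in Malat1, and they differed otherwise too. Hepatocyte markers summed to 28306 CPM in WT cluster 17 and 14108 CPM in N-LKO cluster 6, and mitochondrial UMIs made up 7.71% and 14.2%. Between these clusters Grip1 was at 55.3 and 458 CPM (log2 ratio 3.03 [2.57, 3.57]), Pdzrn3 at 44.6 and 339 CPM (2.90 [2.40, 3.51]) and Scara5 at 23.1 and 210 CPM (3.14 [2.46, 4.03]). Glis3 had only 3 UMIs in the WT cluster, 4.61 CPM, against 393 CPM, a log2 ratio of 6.19 [4.86, 8.69]. Garem1 was at 286 and 664 CPM (1.21 [1.00, 1.44]). Shroom3 and Gramd1c hardly differed: Shroom3 stood at 595 and 594 CPM, and Gramd1c at 321 and 377.2 CPM (0.23 [0.02, 0.45]). The 7 genes therefore parted into 4 with large ratios, 1 near 2-fold and 2 near none. The median of 1733 genes of at least 100 kb was 0.40, and that of all genes expressed in these clusters was 0.05. Of all these genes, 17% were at least 2-fold higher, and among the long ones the share was larger. The 7 genes were chosen for this contrast, so nothing is read from how many of them passed.

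**Figure D3:**
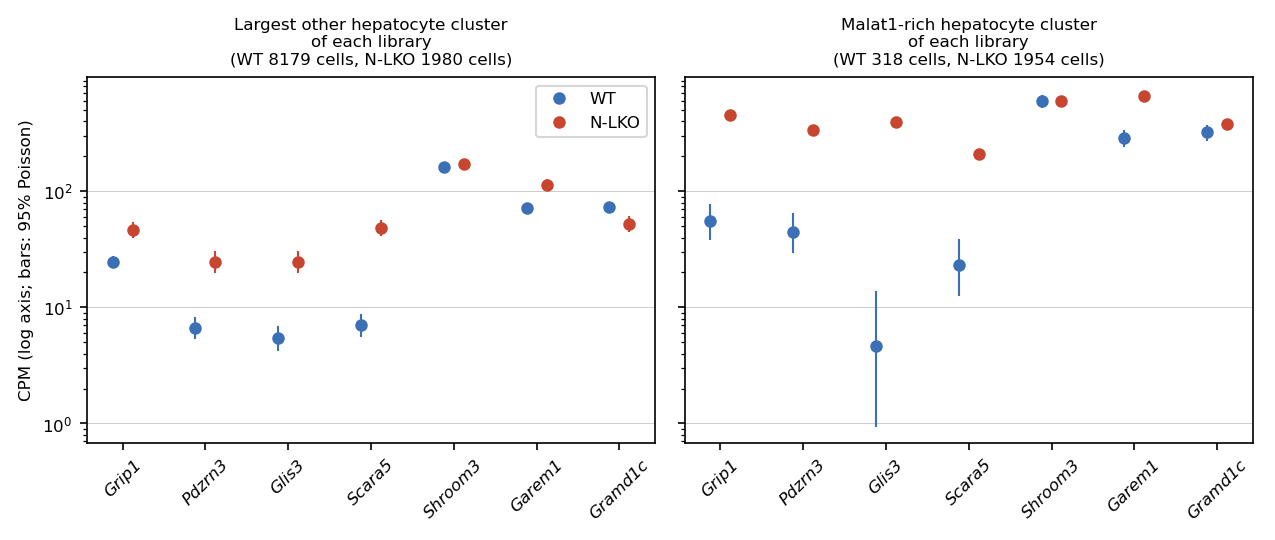
CPM of each gene (log axis, exact 95% Poisson intervals) in the Malat1-rich hepatocyte-like cluster of each library (right) and in the largest other hepatocyte-like cluster of each library (left). On the right, Grip1, Pdzrn3, Glis3 and Scara5 differ widely between WT and N-LKO, and Shroom3 (595 and 594 CPM) does not.

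In the largest other hepatocyte-like clusters, cluster 0 of WT (8179 cells) and cluster 5 of N-LKO (1980 cells), the ratios were smaller. The summed level of the 7 genes was 351 CPM in the WT cluster and 484 CPM in the N-LKO one, a log2 ratio of 0.47 [0.39, 0.54]. Malat1 was at 8843 and 4553 CPM, Neat1 at 542 and 355 CPM, and hepatocyte markers at 47300.2 and 46725 CPM. Of all 9915 genes expressed in these clusters, 6.58% were at least 2-fold higher. Scara5 (7.02 and 48.5 CPM, 2.78 [2.44, 3.15]), Glis3 (5.48 and 24.7 CPM, 2.17 [1.74, 2.61]) and Pdzrn3 (6.67 and 24.7 CPM, 1.89 [1.48, 2.30]) stayed above 2-fold. Grip1 (0.92 [0.66, 1.17]), Garem1 (0.65 [0.49, 0.81]) and Shroom3 (0.11 [-0.01, 0.23]) were below it, and Gramd1c was lower in N-LKO (73.9 and 52.4 CPM, -0.50 [-0.71, -0.29]). The count of genes at least 2-fold higher in the hepatocyte-like class fell from 7 to 3 without the clusters whose Malat1 level was over 2 times or under 0.5 times that of the class's median cluster (6, 9, 17 and 20). With the Malat1-rich clusters 6 and 17 alone left out it was 4, and the summed log2 ratio was 0.57 in place of 2.16. The share of all expressed genes at that size was not computed with clusters left out, so nothing is read from these counts. Cluster 6 held 9.84% of the N-LKO cells and 42.6% of the UMIs of the 7 genes in them.

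Within the N-LKO library, the level in cluster 6 was 15.8 times that in cluster 5 for Glis3, 13.7 times for Pdzrn3, 9.78 times for Grip1, 7.19 times for Gramd1c, 5.83 times for Garem1, 4.32 times for Scara5 and 3.42 times for Shroom3. The same fold between clusters 17 and 0 of WT was 0.977 for Glis3, 6.77 for Pdzrn3, 2.27 for Grip1, 4.36 for Gramd1c, 3.95 for Garem1, 3.38 for Scara5 and 3.71 for Shroom3. The WT fold of Glis3 rests on 3 UMIs, with a log2 interval of [-2.56, 1.35]. Genes of at least 100 kb had a median log2 fold of 1.38 in WT and 1.73 in N-LKO between the same clusters, next to which Shroom3 stood at 1.89 [1.73, 2.05] and 1.77 [1.66, 1.90] and Scara5 at 1.76 [0.83, 2.51] and 2.11 [1.89, 2.34].

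Hepatocyte-like cells were also split by their Malat1 level at 2500, 5000, 10000 and 20000 CPM. In the 5 bins from low to high, Glis3 in WT stayed at 4.68, 4.10, 6.20, 6.33 and 3.63 CPM, and in N-LKO it was at 14.4, 23.8, 146, 427 and 262 CPM. The log2 ratio of the 7 genes summed was 0.86 [0.69, 1.04] in the lowest bin (2376 WT and 727 N-LKO cells), 0.85, 1.75 and 2.79 in the next ones and 1.84 [1.75, 1.93] in the highest (833 and 732 cells). A higher sum in N-LKO was thus present at every Malat1 level, and larger above 5000 CPM. Gramd1c was the exception in the low bins, with ratios of -0.17 [-0.68, 0.29] and 0.01.

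**Figure D4:**
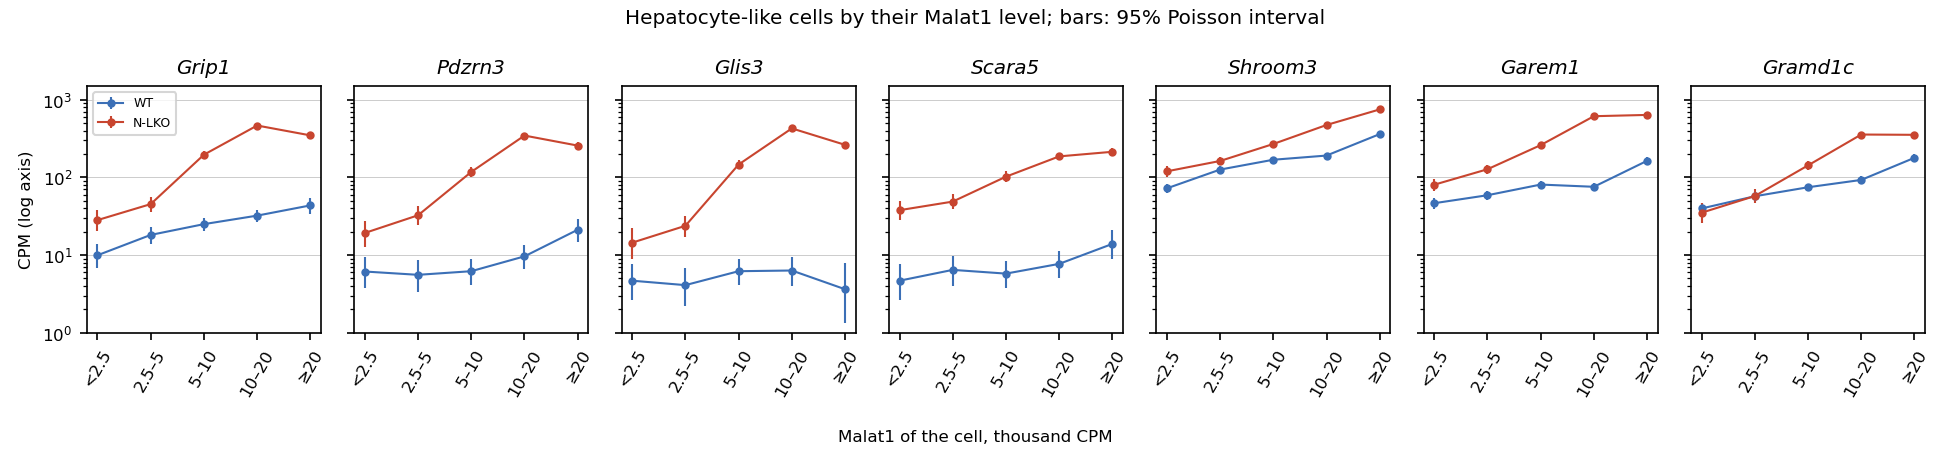
CPM of each gene (log axis, exact 95% Poisson intervals) in hepatocyte-like cells split into 5 bins by the Malat1 level of the cell, WT in blue and N-LKO in red. Glis3 stays under 7 CPM in every WT bin and reaches 427 CPM in N-LKO, while the Gramd1c lines meet at low Malat1.

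How many cells carried the genes was compared after thinning each cell to 1000 UMIs. At least 3 UMIs of the 7 genes were found in 0.402% of the hepatocyte-like cells of WT and 18% of those of N-LKO (1.89% and 33.2% unthinned). Grip1 was seen in 2.30% [2.02, 2.61] and 17% [15.9, 18.2] of the thinned cells, and Shroom3 in 13.4% [12.7, 14.1] and 26.1% [24.7, 27.4] (unthinned 3.80% and 25%, and 21.8% and 41.4%). In endothelial-like cells, where free RNA may contribute, the Grip1 shares were 0.479% [0.219, 0.907] and 6.89% [5.90, 7.98] (0.692% and 10.0% unthinned).

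Barcodes under 500 UMIs were taken to give the level that free RNA can bring to a cell. The matrices hold no barcodes with very few UMIs, so damaged cells in this set cannot be told apart from free RNA. Mitochondrial UMIs and Malat1 were both higher in this set in N-LKO than in WT. The part of damaged cells was not tested, and all values for free RNA below rest on this choice. In these barcodes the 7 genes summed to 127 CPM [119, 135] in WT (18526 barcodes) and 404 CPM [388, 420] in N-LKO (13674 barcodes). That is a log2 ratio of 1.67, so the background itself differed between the libraries in the same direction. In WT the summed level of the macrophage-like, endothelial-like, T/NK-like, B-like, plasmacytoid dendritic-like, dendritic-like and plasma cell-like classes was 0.620 to 0.878 times that background. Free RNA is only a part of each class, so a level under the background can still hold RNA of the cells. Scaled by hepatocyte markers, free RNA would bring 47.0 CPM to WT macrophage-like cells, which had 84.5 CPM. The source of the rest was not tested. Glis3 alone of the 7 was above it, with its whole interval, in some of these classes, at 2.5 times [1.48, 4.09] in T/NK-like and 1.90 times [1.23, 2.90] in macrophage-like cells. In N-LKO the summed level was below the background in the macrophage-like (0.687), dendritic-like (0.663) and plasma cell-like (0.691) classes. There free RNA would bring 146 of the 277 CPM of macrophage-like cells. Of the 77 pairs, 24 had an N-LKO level below that of the N-LKO background. Their ratios are printed above as values and are not read as a difference within those cells. The counts of pairs include them.

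Above the background in N-LKO stood the cholangiocyte-like (4.27 times [4.01, 4.56]), hepatocyte-like (4.02 [3.85, 4.20]), stellate-like (2.19 [2.03, 2.35]), endothelial-like (2.06 [1.95, 2.17]), B-like (1.79 [1.65, 1.93]), T/NK-like (1.71 [1.61, 1.81]) and neutrophil-like classes (1.34 [1.22, 1.46]). The summed level was 830 CPM in endothelial-like cells of N-LKO and 105 CPM in those of WT, and 690 and 111 CPM in T/NK-like cells. Hepatocyte markers, 12 of 12 of them in the matrix, summed to 10947 CPM in endothelial-like cells of N-LKO and 16060 CPM in those of WT, 0.482 and 0.472 times the background of each library. From that share, free RNA would bring 195 CPM of the 7 genes to N-LKO endothelial-like cells and 59.8 CPM to WT ones. Cluster 6, rich in the 7 genes, had 14108 CPM of hepatocyte markers, less than the 22712 CPM of the N-LKO background, so these markers do not track RNA from its cells, and its part was not tested.

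**Figure D5:**
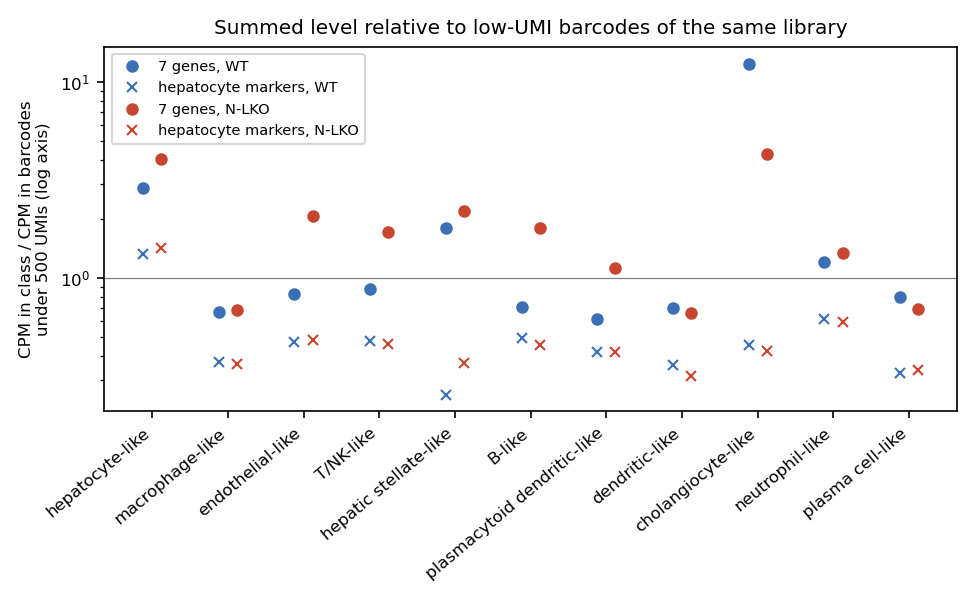
Summed CPM of the 7 genes (circles) and of 12 hepatocyte markers (crosses) in each class, divided by the level in the low barcodes of that library (under 500 UMIs, log axis). In N-LKO the 7 genes lie above 1 in endothelial-like (2.06) and T/NK-like cells (1.71), where the hepatocyte markers lie near 0.5 in both libraries.

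In those classes a few cells held much of the signal. In the endothelial-like class of N-LKO, 183 cells (7.69%) had at least 5 UMIs of the 7 genes and held 53.1% of them, against 0.213% of the cells of WT. Among T/NK-like cells 122 (6.29%) held 51.1%, among B-like cells 61 (7.82%) held 60.7%, and among stellate-like cells 47 (7.41%) held 42.5%. Compared with endothelial-like cells without such a UMI, the 183 cells had less of the endothelial markers (2655 against 6481 CPM), like hepatocyte markers (10474 against 11049 CPM), more Malat1 (19086 against 10499 CPM) and more Neat1 (3269 against 353 CPM). Other genes of at least 100 kb took 30.2% of their UMIs in place of 18.6%, their median depth was 2282 UMIs in place of 1185, and their median doublet score was 0.129 in place of 0.0391. T/NK-like cells with at least 5 such UMIs also had more Neat1, 3676 CPM against 268, and less of the T and natural killer markers, 1394 CPM against 2834. Their doublet score hardly differed (median 0.0895 against 0.0780), nor did that of B-like cells (0.0835 against 0.0814). In macrophage-like cells of N-LKO, 69 cells (1.25%) had at least 5 such UMIs, with a median doublet score of 0.179 against 0.0606. The endothelial-like and T/NK-like cells named thus held a Neat1 level close to that of cluster 6 and a smaller share of their own class's markers. They were also deeper (T/NK-like medians of 2200.5 and 1298 UMIs), so a smaller share does not give the marker UMIs per cell. What part such cells had in the ratios of these classes was not tested.

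Cells with at least 2 Neat1 UMIs had more of the 7 genes than cells with none in the hepatocyte-like, endothelial-like and T/NK-like classes of both libraries. Macrophage-like cells did so in N-LKO (192 CPM with none and 771 CPM with 2 or more). In WT these cells had 86.9 CPM with none and 51.3 CPM [20.6, 106] with 2 or more. The latter rests on 7 UMIs in 89 cells, so no difference is read there. In endothelial-like cells of N-LKO the summed level was 317 CPM in cells with no Neat1 UMI, 513 CPM with 1 and 1925 CPM [1841, 2013] with 2 or more, and in WT it was 79.3, 106 and 660 CPM [499.6, 854.5]. Cells with 2 or more Neat1 UMIs made up 22.3% of the class in N-LKO and 2.55% in WT. In T/NK-like cells the levels were 266, 423 and 2051 CPM in N-LKO and 86.8, 73.2 and 756 CPM in WT. Hepatocyte-like cells had 521, 887 and 2480 CPM in N-LKO and 270, 348 and 524 CPM in WT. Among cells with no Neat1 UMI, N-LKO was at least 2-fold higher in 50 of the 77 pairs. The share of all expressed genes at that size was not computed in these cells, so nothing is read from this count. The N-LKO levels of endothelial-like (317 CPM) and T/NK-like cells (266 CPM) without Neat1 lay below the N-LKO background of 404 CPM. RNA of these cells was thus not told apart from free RNA. At the other end, endothelial-like cells of N-LKO with a doublet score under 0.05 had 432 CPM [400, 466] and those with a score of 0.1 or more had 1420 CPM [1350, 1493], against 80.5 and 202 CPM in WT.

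Long genes as a whole were also higher in N-LKO when whole classes were compared. Hepatocyte-like cells had a median log2 ratio of 0.95 over 1651 expressed genes of at least 100 kb, 46.2% of which were at least 2-fold higher, 0.37 over all 10590 expressed genes and -0.06 over those under 10 kb, of which 9.64% were. Between clusters 0 of WT and 5 of N-LKO no such shift was seen. There the median was -0.05 over 1533 genes of at least 100 kb and 0.07 over all 9915 expressed genes. At least 2-fold higher were 4.89% of the long genes and 6.58% of all. In endothelial-like cells the median of the long genes was 0.50 and that of all genes 0.09, and in barcodes under 500 UMIs they were 0.86 and 0.04. Set among the long genes of hepatocyte-like cells, Glis3 was at the 99.4th percentile, Pdzrn3 at the 98.7th, Scara5 at the 98.4th, Grip1 at the 97.0th and Garem1 at the 92.5th, while Gramd1c (percentile 73.7) and Shroom3 (percentile 63.3) lay well inside the distribution. In endothelial-like cells the 7 lay from the 89.8th percentile (Gramd1c) to the 99.6th (Scara5). Scara5 (98.4 kb) and Gramd1c (83.0 kb) are shorter than 100 kb, so they were only set beside these long genes. Of the long genes expressed in every class, 13.1% of 1471 passed 2-fold in at least 6 classes and 4.08% in at least 9.

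Relatives of the 7 genes did not all share the pattern. Among the class A scavenger receptors, Colec12 was at least 2-fold higher in 8 of the 11 classes that expressed it (hepatocyte-like 148 and 221 CPM, 0.58 [0.50, 0.67]), Msr1 in 2 of 11, and Marco, a receptor of Kupffer cells, was at least 2-fold lower in all 7 of its classes. Lnx1, a ubiquitin ligase related to Pdzrn3, was higher in 6 of 8 classes (6.73 and 21.2 CPM in hepatocyte-like cells, 1.65 [1.31, 2.01]), and Lnx2 in 0 of 11. In the Shroom family, Shroom2 passed in 4 of 11 classes (37.0 and 84.1 CPM, 1.19 [1.03, 1.34]) and Shroom4 in 1 of 9. In the cholesterol carriers, Gramd1a and Gramd1b each passed in 2 of 11, Gramd1b with 7.62 and 34.5 CPM in hepatocyte-like cells (2.18 [1.87, 2.49]). Grip2, Pdzrn4 and Garem2 stayed under 5 CPM in every class, so the families of Grip1 and Garem1 were each represented by 1 gene.

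Over the 22 points given by 11 classes in 2 libraries, the 13776 genes searched held a close match for each of the 7. The points share depth and library, so the correlations are descriptions. Shroom3 was most like Cp, which encodes the ferroxidase ceruloplasmin (Pearson r = 0.978), and Garem1 like Smoc1 (0.957). Grip1 was most like Ildr2 (0.948), Scara5 like Nos1ap (0.939), Pdzrn3 like the metallothionein gene Mt2 (0.916), Gramd1c like Pfkfb1, a regulator of glycolysis (0.916), and Glis3 like Rragd, a GTPase of the mTORC1 pathway (0.873). Scara5 and Garem1 were among the 3 nearest genes of each other (0.933). Spans of these matches ran from under 1 kb (Mt2, 0.905 kb) to 287 kb (Nos1ap), so long genes were not the only ones with these patterns.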

How the data were processed

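Single-cell 3′ RNA-seq was analysed from 1 WT and 1 N-LKO liver library. The deposited matrices hold UMI counts per gene and barcode, which the authors made with Cell Ranger (7.1.0 in the file headers) and did not normalise. The processing notes name build mm9, but 99.6% of the feature IDs match GENCODE M21 (GRCm38), so positions are given in GRCm38, and the annotation and promoter windows (RefSeq, GRCm38.p6) are of that build. Counting of introns and use of strand are not given in the sources used here, and reads from introns would raise the counts of long genes.

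Barcodes with at least 1000 UMIs and 400 genes and at most 30% mitochondrial UMIs were kept, and those with a Scrublet score over 0.25 were removed as doublets (1724 in WT and 2363 in N-LKO). Clustering used scanpy 1.11.5 and leidenalg 0.10.2 in Python 3.11.15 with 2000 variable genes, from which the 7 genes were left out, 30 components, 20 neighbours and resolution 0.3. Clusters were named from marker lists, and the scoring limits were set after seeing the data. Clusters that held markers of more than 1 class (822 and 1879 cells) were left out of the classes. UMIs were summed per class and library and given as CPM with exact Poisson intervals (scipy 1.17.1). Log2 ratios, with 0.5 UMI added, have exact conditional binomial intervals, and shares have exact Clopper-Pearson intervals. A gene counted as expressed at 5 CPM in either library. A count of 0 was taken to allow 3 UMIs per class and library.

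The genes named are the 7 members, relatives from fixed family lists, the 3 genes most like each member, Malat1, Neat1, Nus1 and the marker genes. Gm31508 and the other leading genes of cluster 6 and the features overlapping Grip1 were named after their values were seen. The 7 genes and all lists were chosen with earlier results of these data known. No test between groups was made. The interval and ratio code was checked on simulated data. The alternatives were other limits on UMIs, mitochondrial share and doublets, other scalings, subtraction of free RNA, another resolution and cells or clusters left out.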

Additional observations from a re-analysis of the deposited data

Results flagged for a closer look

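Sets of barcodes outside the classes compared are given here, listed only where the interval of the summed ratio lay wholly above no difference. The whole-library ratios above include these barcodes. Barcodes with at least 500 but fewer than 1000 UMIs and at least 400 genes (16297 in WT and 11291 in N-LKO) had 140 and 504 CPM summed, a log2 ratio of 1.84 [1.77, 1.92]. Those with over 30% mitochondrial UMIs (4085 and 5496) had 249 and 561 CPM, a ratio of 1.17 [1.09, 1.26]. Those with a doublet score over 0.25 (1724 and 2363) had 304 and 895 CPM, 1.56 [1.46, 1.66]. Clusters that held markers of more than 1 class (822 and 1879 cells) had 72.3 and 218 CPM, 1.58 [1.28, 1.91]. Each was noted because the signal lay outside the cells compared and above the WT level, and with 1 library per group none was tested.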

How the results depend on the processing

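With 1 library per group no replicate could be left out. No paired analysis was possible because each group has 1 library. The 64 pairs at least 2-fold higher became 50 (cells with no Neat1 UMI) to 66 (no doublet removal) under the alternatives, of which the first, a doublet score limit of 0.1 (59 pairs), leaving out barcodes shared between libraries (64) and leaving out clusters 6 and 17 (61) were chosen after seeing the data. Subtracting free RNA left 58 of 76 pairs. The share of all expressed genes was not computed under the alternatives, so nothing is read from these counts. Summed log2 ratios are given below for classes whose value left its interval, and "turned" marks a gene at least 2-fold higher whose ratio fell below none. With a minimum of 500 UMIs the ratio was 2.33 in hepatocyte-like, 2.64 in endothelial-like and 2.35 in T/NK-like cells. With 2000 UMIs it was 1.79, 2.39 and 2.33 in these, 2.21 in macrophage-like, 2.22 in stellate-like and 0.65 in B-like cells, and Shroom3 (-0.73) and Gramd1c (-0.42) turned in B-like cells, as did Pdzrn3 (-0.29) and Scara5 (-0.014) in cholangiocyte-like cells. With a mitochondrial limit of 10% the ratios were 1.88 in hepatocyte-like, 2.15 in macrophage-like, 3.6 in endothelial-like, 3.31 in T/NK-like, 2.59 in stellate-like, 3.72 in plasmacytoid dendritic-like and 3.05 in dendritic-like cells, and without a limit 2.10 in hepatocyte-like and 2.74 in endothelial-like cells. The hepatocyte-like ratio was 2.08 scaled without mitochondrial genes, 1.79 relative to the median of all genes and 2.29 as a mean over cells. With free RNA subtracted it was 1.97, with 3.83 in endothelial-like, 3.19 in T/NK-like, 2.13 in stellate-like, 3.94 in B-like and -0.044 in cholangiocyte-like cells, and Scara5 turned in dendritic-like (-1.64) and cholangiocyte-like cells (-0.028). Without clusters 6, 9, 17 and 20 the hepatocyte-like ratio was 0.47 and Gramd1c turned (-0.47), and without clusters 6 and 17 these were 0.57 and -0.37. At resolution 1.0 the T/NK-like ratio was 3.15. With a doublet limit of 0.1 the ratios were 2.09 in hepatocyte-like, 1.35 in macrophage-like, 2.69 in endothelial-like and 1.72 in stellate-like cells. In cells with no Neat1 UMI they were 0.95 in hepatocyte-like, 1.14 in macrophage-like, 1.99 in endothelial-like, 1.61 in T/NK-like, 1.26 in stellate-like, 2.33 in B-like, 1.46 in plasmacytoid dendritic-like and 0.97 in neutrophil-like cells, and Glis3 turned in neutrophil-like cells (-0.074). The cause of these moves was not tested.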

Other observations

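The 22 genes at least 2-fold higher in N-LKO in every class form another group, chosen by the same contrast and given as values only. Among them were Zbtb16 and Fkbp5, known targets of glucocorticoids, whose log2 ratios in hepatocyte-like cells were 3.14 and 3.15, and the metallothionein genes Mt1 (4.46) and Mt2 (5.28). The acute phase genes Saa1 (2.62), Orm2 (3.22), Lrg1 (1.31) and Hp (1.44) were also there. Of the 22, 9 had a span of at least 100 kb, among them Zbtb16 (182 kb), Fkbp5 (118 kb) and Pcsk5 (405 kb), while Mt1, Mt2, Saa1, Orm2, Lrg1 and Hp are short. In barcodes under 500 UMIs the ratios were 4.96 for Mt2, 3.68 for Orm2, 2.79 for Zbtb16 and 2.58 for Fkbp5.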
